A study of Homo sapiens with 4 samples.

Results

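Cell division needs a shared set of proteins. Motor proteins of the kinesin family push, pull and trim microtubules to build the spindle, condensin and cohesin fold and hold the chromosomes, and the anaphase-promoting complex (APC/C) marks proteins for destruction so that sister chromatids can part. Most of these genes are switched on late in the cell cycle through 2 promoter elements, the CHR (cell cycle genes homology region) and the CCAAT box, read by the MuvB complex with B-MYB and FOXM1 and by NF-Y. The 50 genes described here are mitotic kinesins, spindle assembly factors, the chromosomal passenger complex, cytokinesis factors, condensin, cohesin, anaphase regulators, mitotic chromatin proteins and the transcription factors FOXM1 and MYBL2. They were chosen by gene symbol, all 50 matched an Ensembl gene ID of the 43450 in the table, and all 50 passed the filter that left 12935 genes for testing.

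The cells were BLaER1, a human B cell leukaemia line with an inducible C/EBPα transgene, grown in RPMI medium with serum. There were 2 libraries labelled HAL7 knockdown (replicates 0 and 1), from cells given 3 LNA GapmeRs against the long non-coding RNA HAL7 in the medium. They are set against 2 libraries labelled control (replicates 0 and 1). GapmeRs are antisense oligonucleotides that direct RNase H to a bound RNA. The protocol text is the same for both groups, and the sources used here do not give what control cells received, how long treatment lasted or whether replicates were separate cultures. The p-values thus measure library-to-library spread that could be technical.

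Polyadenylated RNA was measured as FPKM, which is a fragment count divided by transcript length and library size. HAL7 stood at 0.475 and 0.347 FPKM in knockdown replicates 0 and 1, against 0.726 and 0.613 FPKM in control replicates 0 and 1. It was lower in knockdown without overlap, at a ratio of mean FPKM of 0.614. The difference did not pass the test (limma adjusted p = 0.32, unadjusted p = 0.059). At levels under 1 FPKM, the log2(FPKM + 1) scale of the test understates a change. Relative depths recovered from the steps of low values were 1.78 and 1.59 in knockdown and 1.00 and 2.13 in control libraries, so that 10 FPKM stands for about 602 to 1282 fragments per kb of transcript. All 10 B cell markers checked were present, with a summed level of 3042 and 3003 FPKM in knockdown and 3129 and 3099 FPKM in control libraries. All 6 T cell markers were under 1 FPKM in every library, as were 5 of the 7 macrophage and monocyte markers matched. The summed macrophage and monocyte level was 36.6 and 40.3 FPKM in knockdown and 39.5 and 38.5 FPKM in control libraries, nearly all of it CSF1R, a macrophage growth factor receptor, which overlapped between groups at a ratio of 1.01. The lysosomal marker CD68 had 2.43 and 1.995 FPKM in knockdown and 2.73 and 3.21 FPKM in control libraries (limma adjusted p = 0.24, unadjusted p = 0.024). Of the B cell markers, RAG1, a recombinase of B cell precursors, had 216 and 191 FPKM in knockdown and 239.7 and 252 FPKM in control libraries (limma adjusted p = 0.20, unadjusted p = 0.0075). Both CD68 and RAG1 were thus lower in knockdown libraries without overlap, and their part in the results below was not tested.

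The promoters of 4 genes are shown because they all carry both elements while the genes behind them gave unlike values. KIF11 and HMMR had the smallest p-values among the 50 genes, while PLK1 and CDC20 hardly differed between groups. The 4 genes also differ in transcript GC content: 38.3% for KIF11 and 36.7% for HMMR, against 57.1% for PLK1 and 57.9% for CDC20. With the GC trend described below removed, the log2 changes were 0.22 for KIF11, 0.19 for HMMR, 0.05 for PLK1 and 0.09 for CDC20. Not every gene with both elements follows this order. KIF14, another of the 22 such genes, also had a GC content of 38.3%. Its log2 change was 0.04, and -0.02 with the trend removed. Sequences are the RefSeq windows from 250 bases before to 50 bases after the gene start (GRCh38.p14), written 5′ to 3′ on the gene's strand, and capitals mark TTTGAA or TTTAAA and CCAAT on either strand. The windows are chr10:92592880-92593179 (plus strand) for KIF11, chr5:163460382-163460681 (plus) for HMMR, chr16:23678639-23678938 (plus) for PLK1 and chr1:43358731-43359030 (plus) for CDC20.
KIF11: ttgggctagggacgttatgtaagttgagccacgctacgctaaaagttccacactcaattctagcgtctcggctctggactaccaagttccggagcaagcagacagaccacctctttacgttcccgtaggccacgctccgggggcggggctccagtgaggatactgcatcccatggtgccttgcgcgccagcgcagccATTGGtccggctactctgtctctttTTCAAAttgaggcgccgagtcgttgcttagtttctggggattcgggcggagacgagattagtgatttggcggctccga
HMMR: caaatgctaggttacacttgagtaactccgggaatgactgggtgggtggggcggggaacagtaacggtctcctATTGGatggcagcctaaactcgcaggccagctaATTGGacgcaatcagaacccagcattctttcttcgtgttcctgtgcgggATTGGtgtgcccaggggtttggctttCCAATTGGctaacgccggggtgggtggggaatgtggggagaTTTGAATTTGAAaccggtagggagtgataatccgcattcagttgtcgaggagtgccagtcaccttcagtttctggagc
PLK1: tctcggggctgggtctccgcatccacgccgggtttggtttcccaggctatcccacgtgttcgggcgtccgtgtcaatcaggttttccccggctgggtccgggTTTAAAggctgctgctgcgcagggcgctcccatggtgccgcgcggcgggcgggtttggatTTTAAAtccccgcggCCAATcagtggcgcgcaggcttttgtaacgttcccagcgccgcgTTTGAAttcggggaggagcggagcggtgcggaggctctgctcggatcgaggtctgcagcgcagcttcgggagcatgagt
CDC20: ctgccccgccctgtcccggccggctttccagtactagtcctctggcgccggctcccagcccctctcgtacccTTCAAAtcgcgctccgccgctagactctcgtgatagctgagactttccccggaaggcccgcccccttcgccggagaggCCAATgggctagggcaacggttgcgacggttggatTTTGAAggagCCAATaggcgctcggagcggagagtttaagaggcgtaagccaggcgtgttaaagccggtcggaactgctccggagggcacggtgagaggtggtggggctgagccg
In KIF11 the CHR-type hexamer starts 28 bases before the gene start, with a CCAAT box 53 bases before it. HMMR has 2 hexamers in a row, 28 and 22 bases before the start. PLK1 has TTTGAA 29 bases before the start, and TTTAAA 148 and 88 bases before it. In CDC20 the hexamers lie 178 and 65 bases before the start.

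A promoter window was matched for 42 of the 50 genes. TTTGAA, searched on both strands, was present in 31 of these (73.8%), against 15.4% of all 27305 promoters of that length and 9.31% of the 9457 that belong to tested genes. TTTAAA, which reads the same on both strands, was present in 9 (21.4%), against 6.97% of tested genes. CCAAT was present in 29 (69.0%), against 37.0% of tested genes, and TTTGAA and CCAAT together in 22 (52.4%), against 4.05%. The windows of MYBL2, NCAPD3 and SMC1A held none of these letters. As a description, the median log2 change between the groups was 0.12 in the 31 genes with TTTGAA and 0.04 in the 11 without, but 0.04 in the 9 with TTTAAA and 0.10 in the 33 without, and 0.07 in the 29 with CCAAT and 0.14 in the 13 without. A match is a string of letters and not a measured binding site.

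Most of the 50 genes were slightly higher after HAL7 knockdown, at a median ratio of mean FPKM of 1.06. No gene passed the test over all genes: 0 of 50 had a limma adjusted p under 0.05, the lowest being 0.19, against 4 of 12935 tested genes (0.0309%). At an unadjusted limma p under 0.05, 18 of 50 were higher and 0 lower, where 7.25% of all tested genes were higher and 9.35% lower. Both knockdown libraries lay above both control libraries in 26 of 50 genes (22.5% of all tested genes) and below them in 1 (27.7% of all tested genes). The log2 change, on the log2(FPKM + 1) scale, was positive in 47 of 50, against 46.8% of all tested genes, with a median of 0.08, against -0.01 over all tested genes. The range ran from -0.24 for UBE2S to 0.28 for KIF11. Because bulk RNA was measured, more cells in mitosis and more of these RNAs per cell cannot be told apart.

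The count of 18 depended on single libraries. It was 9 without control replicate 0, 6 without control replicate 1, 9 without knockdown replicate 0 and 15 without knockdown replicate 1, where 5.36%, 2.98%, 8.13% and 5.95% of all tested genes were higher in the same order of fits. How many of all tested genes were higher in every one of these fits was not counted, so the fits single out no gene of the 50. Library by library, knockdown replicate 0 was higher than control replicate 1 in 47 of 50 genes (43.7% of all tested genes) and higher than control replicate 0 in 38 (47.7%). Knockdown replicate 1 was higher than control replicate 1 in 41 (47.7% of all tested genes) and higher than control replicate 0 in 34 (49.7%). The control libraries also differed from each other, replicate 0 being higher than replicate 1 in 38 of 50 (48.2% of all tested genes), with a median log2 difference of 0.05. The knockdown libraries had a median log2 difference of 0.03, replicate 0 being higher in 32 of 50 (49.7%).

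Mitotic kinesins ran from a ratio of 1.25 for KIF20B to 1.02 for KIFC1, and 0 of the 12 passed limma over all genes. KIF11, the motor that slides the spindle poles apart, had 21.6 and 20.8 FPKM in knockdown replicates 0 and 1, against 18.1 and 16.5 FPKM in control replicates 0 and 1. Both knockdown libraries were above both controls, the log2 change being 0.28 ± 0.06 (SE) at an adjusted p of 0.19 in limma. KIF15, which can stand in for KIF11 in keeping the spindle bipolar, had 20.9 and 23.0 FPKM in knockdown and 17.9 and 18.8 FPKM in control libraries. KIF20B, a motor of late cytokinesis, had 7.99 and 7.78 FPKM in knockdown and 6.62 and 6.04 FPKM in control libraries. For both genes the groups did not overlap, at ratios of mean FPKM of 1.20 and 1.25 and a limma adjusted p of 0.20 each.

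KIF18A, which damps the movements of chromosomes at the spindle equator, had 6.25 and 5.72 FPKM in knockdown and 5.31 and 4.79 FPKM in control libraries, and KIF23, the motor of the centralspindlin complex, stood at a ratio of 1.09, both without overlap. KIF22, a chromokinesin and the most abundant of the 12 mitotic motors per length, had 36.1 and 37.3 FPKM in knockdown, against 35.7 and 34.7 FPKM in control libraries. Its groups did not overlap either, but the ratio was 1.04. KIFC1, a minus-end motor that clusters centrosomes, had 27.6 and 26.3 FPKM in knockdown and 27.8 and 25.3 FPKM in control libraries, which overlapped. The groups also overlapped for KIF4A, KIF2C, KIF20A, KIF14 and KIF18B, with ratios from 1.02 for KIF18B and KIF2C to 1.04 for KIF4A. KIF2C removes tubulin from microtubule ends, KIF4A is a chromokinesin that works with PRC1, and KIF20A brings the passenger complex to the spindle midzone. Of the 12 motors, 12 had a positive log2 change (46.8% of all tested genes), with a median of 0.05. Both knockdown libraries lay above both controls in 6 (22.5% of all tested genes). At an unadjusted limma p under 0.05, 4 were higher (7.25% of all tested genes).

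Among 9 spindle assembly genes, HMMR, DLGAP5, ASPM and TPX2 were higher without overlap and the kinases hardly differed. These are 4 of 9, where 22.5% of all tested genes had both knockdown libraries above both controls. The same 4 were higher at an unadjusted limma p under 0.05 (7.25% of all tested genes). HMMR, which binds microtubules and helps TPX2 at the poles, had 16.5 and 15.5 FPKM in knockdown replicates 0 and 1, against 13.3 and 13.0 FPKM in control replicates 0 and 1. Its log2 change was 0.27 ± 0.06 (SE), at a limma adjusted p of 0.19. DLGAP5, which stabilizes kinetochore fibres, had 14.5 and 14.8 FPKM in knockdown and 13.1 and 11.8 FPKM in control libraries. ASPM, a protein that focuses spindle poles, had 10.1 and 9.51 FPKM in knockdown and 8.81 and 7.64 FPKM in control libraries. TPX2, the activator of the kinase Aurora A, had 32.5 and 32.3 FPKM in knockdown and 30.0 and 28.9 FPKM in control libraries.

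NUSAP1, a microtubule crosslinker and the most abundant of these genes per length, had 112 and 110.5 FPKM in knockdown and 98.8 and 111 FPKM in control libraries, which overlapped because control replicate 1 was as high as the knockdown libraries. PLK1, a master kinase of mitosis, had 17.4 FPKM in each knockdown library and 17.6 and 17.4 FPKM in control replicates 0 and 1, a log2 change of -0.01 ± 0.05 (SE); with quantile normalization its sign turned. AURKA, the pole kinase that TPX2 activates, stood at a ratio of 1.02. NEK2, which separates centrosomes, and PLK4, which starts centriole duplication, both stood at 1.01.

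The chromosomal passenger complex showed little difference. AURKB, its kinase, had 39.5 and 38.5 FPKM in knockdown and 39.1 and 36.5 FPKM in control libraries, and INCENP, its scaffold, had 23.0 and 23.5 FPKM in knockdown and 23.4 and 22.0 FPKM in control libraries. Both overlapped between groups. BIRC5 and CDCA8, which bring the complex to the centromere, stood at ratios of 1.08 and 1.05. Of the 4 subunits CDCA8 alone did not overlap, with knockdown higher (22.5% of all tested genes). None of the 4 had an unadjusted limma p under 0.05.

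In cytokinesis, ECT2, the exchange factor that activates RhoA at the cleavage furrow, was higher without overlap, with 11.5 and 11.2 FPKM in knockdown and 10.5 and 9.70 FPKM in control libraries. PRC1, which bundles the midzone microtubules, had 13.5 and 14.2 FPKM in knockdown and 9.69 and 13.2 FPKM in control libraries. Control replicate 0 sat far below the other 3 libraries for PRC1: the log2 change of 0.27 became 0.07 without it and 0.47 without control replicate 1. RACGAP1, the partner of KIF23 in centralspindlin, had 39.2 and 35.4 FPKM in knockdown and 36.1 and 33.7 FPKM in control libraries. ANLN, which scaffolds the contractile ring, had 9.18 and 7.68 FPKM in knockdown and 7.96 and 8.28 FPKM in control libraries. RACGAP1 and ANLN overlapped between groups.

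In condensin 6 of 7 genes did not overlap, all 6 with knockdown higher (22.5% of all tested genes), and the median log2 change was 0.15. Among the mitotic chromatin genes the same held for 3 of 3, with a median of 0.17. SMC2, an ATPase subunit of both condensins, had 21.8 and 22.7 FPKM in knockdown replicates 0 and 1, against 18.7 and 19.5 FPKM in control replicates 0 and 1, a log2 change of 0.21 ± 0.06 (SE) at a limma adjusted p of 0.21. Its partner SMC4 had 62.3 and 55.0 FPKM in knockdown and 54.2 and 56.7 FPKM in control libraries, which overlapped. Per length, SMC4 thus stood above SMC2 in every library.

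Of the subunits found in condensin II alone, which acts on chromosomes in early mitosis, NCAPD3 and NCAPG2 are among the 50 genes and were higher without overlap. NCAPD3 had 23.8 and 24.6 FPKM in knockdown and 21.8 and 21.5 FPKM in control libraries, and NCAPG2 had 18.1 and 17.0 FPKM in knockdown and 15.9 and 14.8 FPKM in control libraries. The remaining one, NCAPH2, is not among the 50; it had 28.2 and 28.0 FPKM in knockdown and 29.2 and 28.0 FPKM in control libraries, which overlapped at a log2 change of -0.02. Of the condensin I subunits, NCAPD2 had 63.2 and 60.2 FPKM in knockdown and 60.1 and 54.8 FPKM in control libraries, with knockdown replicate 1 barely above control replicate 0. NCAPH, the subunit that closes the ring, had 26.3 and 26.2 FPKM in knockdown and 24.8 and 25.2 FPKM in control libraries. NCAPG had 24.2 and 22.6 FPKM in knockdown and 21.6 and 17.6 FPKM in control libraries; control replicate 1 was low, and the log2 change of 0.25 was 0.11 without it. Counting by strand is not stated, and opposite-strand genes share 33.1% of the annotated exon bases of NCAPG (LCORL) and 18.5% of those of SMC4 (TRIM59), so reads of these pairs may not be told apart.

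The 3 cohesin core genes, whose ring holds sister chromatids together and which are also used outside mitosis, were at ratios of 1.05 to 1.11. RAD21, the subunit cut at anaphase, had 160.1 and 153 FPKM in knockdown and 146 and 147 FPKM in control libraries. SMC3 had 49.7 and 48.2 FPKM in knockdown and 43.7 and 44.8 FPKM in control libraries, and like RAD21 it did not overlap. SMC1A had 42.9 and 45.0 FPKM in knockdown and 43.0 and 40.6 FPKM in control libraries, which overlapped. Thus 2 of 3 were higher without overlap (22.5% of all tested genes). Of the 3 genes, SMC3 alone had an unadjusted limma p under 0.05, at 0.027 with an adjusted p of 0.25, where 7.25% of all tested genes were higher. With the GC trend described below removed, its log2 change was 0.09 (limma unadjusted p = 0.12), against 0.14 before removal.

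The anaphase genes had the lowest median of the role groups, a log2 change of 0.02, and held 2 of the 3 genes with a negative change. UBE2S, the ubiquitin-conjugating enzyme that lengthens chains on APC/C substrates, had 28.1 and 36.8 FPKM in knockdown replicates 0 and 1, against 39.8 and 36.4 FPKM in control replicates 0 and 1. Knockdown replicate 0 was far below the other 3 libraries: the log2 change of -0.24 ± 0.12 (SE) was -0.05 without it and -0.43 without knockdown replicate 1. FZR1, the APC/C activator of late mitosis and G1, had 12.2 and 12.1 FPKM in knockdown and 13.4 and 12.6 FPKM in control libraries. It was the 1 gene of the 50 with both knockdown libraries below both controls, at a ratio of 0.934 and a limma adjusted p of 0.48, and its sign turned once the GC trend described below was removed.

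UBE2C, which starts ubiquitin chains for the APC/C, had 39.2 and 38.5 FPKM in knockdown and 37.5 and 36.2 FPKM in control libraries, without overlap. PTTG1 (securin), the inhibitor of separase, had 55.6 and 60.0 FPKM in knockdown and 58.0 and 56.2 FPKM in control libraries. ESPL1 (separase), the protease that cuts cohesin, and CDC20, the APC/C activator of anaphase onset, stood at ratios of 1.01 and 1.02. PTTG1, ESPL1 and CDC20 overlapped between groups.

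All 3 mitotic chromatin genes were higher without overlap. HMGB2, a DNA-bending protein and the most abundant of the 50 per length, had 411 and 409 FPKM in knockdown replicates 0 and 1, against 369 and 362 FPKM in control replicates 0 and 1. Its means were 410.0 ± 1.81 FPKM in knockdown and 366 ± 5.60 FPKM in control libraries (SD, n = 2 each), with a limma adjusted p of 0.22. TOP2A, the topoisomerase that untangles sister DNA, had 51.0 and 47.6 FPKM in knockdown and 44.8 and 41.9 FPKM in control libraries. MKI67, which encodes the proliferation marker Ki-67 that coats mitotic chromosomes, had 25.8 FPKM in each knockdown library and 24.1 and 22.8 FPKM in control replicates 0 and 1.

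Of the transcription factors, MYBL2 (B-MYB) had 49.4 and 54.2 FPKM in knockdown and 47.1 and 46.2 FPKM in control libraries, without overlap, a log2 change of 0.15 ± 0.06 (SE). FOXM1 had 22.4 and 20.8 FPKM in knockdown and 20.9 and 20.4 FPKM in control libraries, which overlapped. The limma adjusted p was 0.30 for MYBL2 and 0.63 for FOXM1. ITFG2, on the opposite strand, shares 15.9% of the annotated exon bases of FOXM1.

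**Figure D1:**
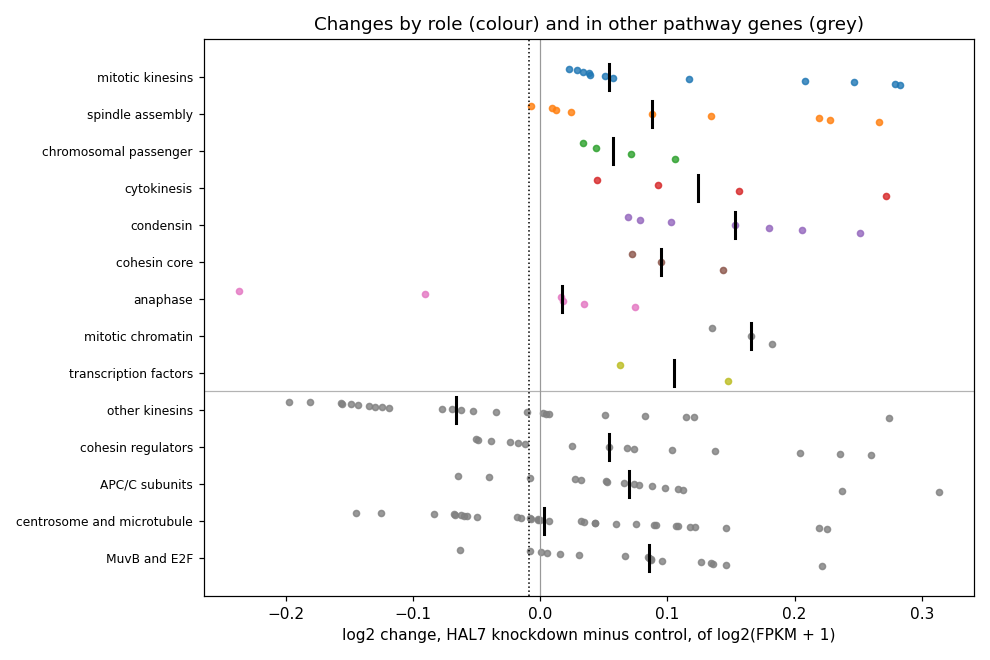
Log2 change, HAL7 knockdown minus control, on the log2(FPKM + 1) scale for each gene, by role (coloured, above the line) and in 5 other pathway lists (grey, below it); black bars are list medians and the dotted line is the median of all tested genes, -0.01. All genes of 7 role groups lie above 0, the exceptions being PLK1 in spindle assembly and UBE2S and FZR1 among the anaphase genes; condensin and mitotic chromatin have medians of 0.15 and 0.17, and the other kinesin and kinesin-associated genes a median of -0.07.

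Other genes of the same pathways did not all share this pattern. Of the other 27 kinesin and kinesin-associated genes listed, 24 were tested, and 8 had a positive log2 change (46.8% of all tested genes). Both knockdown libraries lay below both controls in 9 (27.7% of all tested genes) and above them in 4 (22.5%). The median was -0.07, and 0 passed limma over all genes. At an unadjusted limma p under 0.05, 1 was higher (7.25% of all tested genes) and 2 lower (9.35%). KLC1, a light chain of the cargo-carrying kinesin, had 36.4 and 38.5 FPKM in knockdown and 42.2 and 44.0 FPKM in control libraries. KIF2A, a microtubule depolymerase that also acts at the spindle, had 46.8 and 45.6 FPKM in knockdown and 44.7 and 40.5 FPKM in control libraries, higher without overlap at a ratio of 1.08. KIF21A, which limits microtubule growth, was higher without overlap too, with 2.62 and 2.71 FPKM in knockdown and 2.15 and 1.92 FPKM in control libraries. The median transcript GC content was 44.3% in the 12 mitotic motors and 53.2% in these 24 genes. With the GC trend removed, as described next, the median log2 change was 0.09 in the 12 motors and -0.05 in the 24 genes.

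Of 16 genes listed as cohesin regulators or the remaining condensin II subunit, 15 were tested. The change was positive in 9 (46.8% of all tested genes), and the median was 0.05. Without overlap, 6 were higher (22.5% of all tested genes) and 1 lower (27.7%). At an unadjusted limma p under 0.05, 2 were higher (7.25% of all tested genes) and 0 lower (9.35%). The acetyltransferases that lock cohesin on DNA were higher without overlap: ESCO2 had 10.8 and 10.4 FPKM in knockdown and 8.69 and 8.95 FPKM in control libraries, and ESCO1 stood at a ratio of 1.17. Of 16 genes listed with the APC/C, all tested, 13 had a positive change (46.8% of all tested genes), with a median of 0.07. Here 5 were higher without overlap (22.5% of all tested genes) and 2 lower (27.7%). At an unadjusted limma p under 0.05, 2 were higher (7.25% of all tested genes) and 0 lower (9.35%). FBXO5 (EMI1), the APC/C inhibitor of S and G2 phase, had 24.4 and 25.0 FPKM in knockdown and 20.9 and 20.7 FPKM in control libraries, with a limma adjusted p of 0.19. In both lists 0 genes passed limma over all genes. The GC trend described next was also removed here, and the median of each list was then 0.05. The log2 changes of ESCO2, ESCO1 and FBXO5 were then 0.18, 0.13 and 0.14, against 0.24, 0.20 and 0.24 before removal.

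The size of the difference went with the base composition of the transcript. GC content was taken from the longest annotated transcript of each gene and ran from 34.2% for KIF20B to 64.0% for FZR1. Across the 50 genes, which share the same 4 libraries, Spearman's rho between GC content and log2 change was -0.59, and across 12499 tested genes with a GC value it was -0.41. In the lowest tertile of tested genes by GC content, up to 44.0%, 22 of the 50 genes had a median log2 change of 0.17, against 0.05 for all genes of that tertile. In the middle tertile 16 genes had a median of 0.07, against -0.01. In the tertile above 53.9% 12 genes had a median of 0.03, against -0.07. Of the 18 genes at an unadjusted limma p under 0.05, 13 of 22 were in the lowest tertile, where 15.3% of all genes were higher at that p, 4 of 16 in the middle (5.23%) and 1 of 12, MYBL2, in the highest (1.13%). Within the knockdown group the same relation appeared between the replicates: the difference of replicate 0 minus replicate 1 had a rho with GC content of -0.50 over the 50 genes and -0.34 over all tested genes, while between the control replicates the values were 0.10 and -0.05. The part of GC content in the result was measured only by removing its trend.

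**Figure D2:**
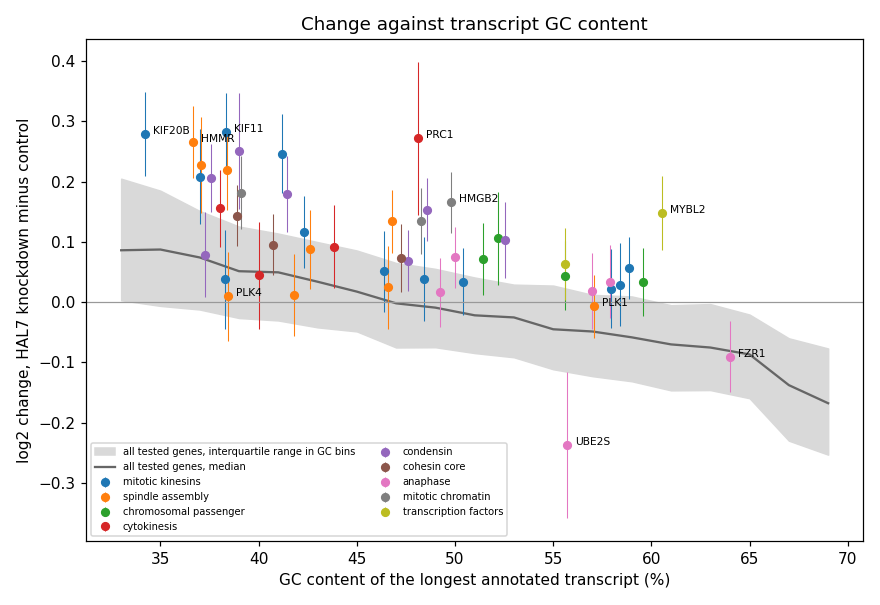
Log2 change, HAL7 knockdown minus control (vertical axis), against GC content of the longest annotated transcript in percent; points are the 50 genes by role with the SE of the fit, the grey line is the median and the band the interquartile range of all tested genes in GC bins. Some genes at the low-GC left, such as KIF11, HMMR and KIF20B, reach 0.27 to 0.28, while FZR1, at 64.0% GC, lies at -0.09. Others lie off this trend: PLK4, at 38.4% GC, is at 0.01, and MYBL2, at 60.5% GC, is at 0.15.

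With the GC trend removed from each library, the median of the 50 genes was 0.09, against 0.0044 over all tested genes, and 45 of 50 had a positive log2 change, against 51.7% of all tested genes. At an unadjusted limma p under 0.05, 13 were higher and 0 lower, where 6.83% of all tested genes were higher and 7.07% lower, and 0 of 50 passed at an adjusted p of 0.05 (0.04% of all tested genes). The order of the genes shifted. The log2 change was 0.22 for KIF11, 0.18 for KIF20B and 0.22 for MYBL2 after removal, against 0.28, 0.28 and 0.15 before it. SMC4 stood at 0.0083, and KIF14, NEK2, PLK4 and ANLN turned to the negative side. The GC-rich passenger genes moved up, to a median of 0.10, and condensin had a median of 0.14 with 7 of 7 positive, and 2 of 7 at an unadjusted limma p under 0.05, against 4 of 7 before removal. Among the motors, KIF22 stood at 0.12 (limma unadjusted p = 0.045, adjusted p = 0.35), KIF18B at 0.09 and KIFC1 at 0.08, against 0.06, 0.03 and 0.02 before removal, while KIF18A stood at 0.14 (limma unadjusted p = 0.084, adjusted p = 0.42), against 0.21.

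**Figure D3:**
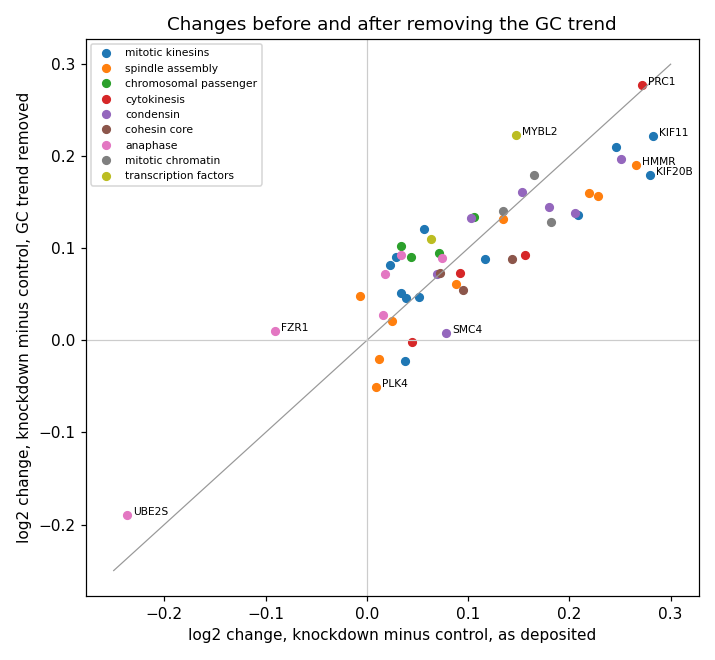
Log2 change, HAL7 knockdown minus control, of the 50 genes from the values as deposited (horizontal axis) and after removing the GC trend from each library (vertical axis); the diagonal marks equal values. KIF11, HMMR and KIF20B fall below the diagonal, MYBL2 at 0.22 and FZR1 at 0.01 lie above it, and UBE2S remains lowest at -0.19.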

How the data were processed

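The deposited values are FPKM made by the authors; the unit is not written in the table and was read from the Cuffdiff-style ID column and the values. The tools were TopHat2 2.0.14, Bowtie2 2.2.5 and Cuffdiff 2.2.1 on hg19, per the submitters' processing notes. Its options, annotation and library scaling were not given in the sources used here. Names, positions, exon overlaps, transcript lengths and GC content come from GENCODE 29 (GRCh38) by Ensembl ID, and promoters from RefSeq (GRCh38.p14). Knockdown was compared with control by limma 3.58.1 in R 4.3.3 on log2(FPKM + 1), which understates changes of low genes, over 12935 genes (mean of 1 FPKM or more, plus HAL7), with a variance trend, two-sided p and Benjamini-Hochberg adjustment over all genes; the script was checked on simulated data. An exact permutation test of 2 against 2 cannot go below p = 0.33. GC trends were loess fits (span 0.5) per library. Depth came from steps in FPKM times length over 1214 single-transcript genes of at least 2500 nt; 79.9% to 89.8% of the low values lay within 0.15 of a whole multiple. It covers counting error only and assumes the authors' scaling left totals unchanged. The genes and lists were chosen with earlier results of these data known. Values in every library are given for the 12 genes of smallest p and, per role, the 2 most abundant and the lowest in log2 change; KIF18A, ECT2, NCAPG, FZR1, NCAPH2, CSF1R, CD68 and RAG1 were added after their values were seen. Of other lists, up to 2 genes of smallest p and the most abundant were eligible. Of 109 such genes 108 matched. Other settings tried were a replicate block, leaving out each library, protein-coding genes only, a minimum mean of 5 FPKM, no minimum, median centring, quantile normalization, pseudocounts of 0.1 and 5, and no variance trend; a group left with 1 library took its spread from the other group.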

Additional observations from a re-analysis of the deposited data

How the results depend on the processing

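Of the 50 genes, 0 passed limma over all genes under any setting tried, and the other values kept their direction except as given here. The 4 calls over all tested genes became 2 with a pseudocount of 0.1, 0 without a filter (3002 at an unadjusted limma p under 0.05), 1 with a mean of at least 5 FPKM and 11 to 22 when a library was left out. The 18 genes higher at an unadjusted p became 6 to 15 when a library was left out (2.98% to 8.13% of all tested genes); the median of 0.08 became 0.0735 to 0.114, and the 47 positive changes became 39 to 45. The replicate numbers are not stated to pair the samples; the replicate 0 minus 1 differences of the groups correlated at 0.12 across genes. With the number as a replicate block, 19 genes were called in all and 14 of the 50 were higher at an unadjusted p (7.26% of all tested genes), and 9 with the block and the GC trend removed (5.94%). The count of 18 also became 13 without a filter (4.55% of all tested genes) and 13 with no variance trend (6.79%). The log2 change of PLK1 turned to 0.00840 with quantile normalization. With the GC trend removed, with or without the replicate block, the log2 change was -0.0228 for KIF14, 0.0481 for PLK1, -0.0501 for PLK4, -0.0197 for NEK2, -0.0013 for ANLN, 0.0106 for FZR1 and -0.00821 for STAG2, a cohesin subunit gene. Leaving out each library gave ranges that cross 0: -0.0705 to 0.159 for ANLN, -0.0421 to 0.0908 for AURKA, -0.00588 to 0.0934 for AURKB, -0.0237 to 0.0918 for CDC20, -0.0246 to 0.0605 for ESPL1, -0.0072 to 0.0748 for INCENP, -0.0301 to 0.106 for KIF14, -0.0235 to 0.0815 for KIF18B, -0.0351 to 0.113 for KIF20A, -0.00774 to 0.0755 for KIF2C, -0.0446 to 0.0895 for KIFC1, -0.0471 to 0.0713 for NEK2, -0.0173 to 0.00317 for PLK1, -0.0588 to 0.0776 for PLK4, -0.038 to 0.0705 for PTTG1 and -0.00952 to 0.166 for SMC4. For these genes the direction is not set by these libraries. The cause of these shifts was not tested, beyond the fewer or different genes and libraries each setting uses.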

Other observations

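Microtubule and centrosome genes outside the 50 were split evenly by sign, with 16 of 32 positive in log2 change (46.8% of all tested genes). Both knockdown libraries lay above both controls in 13 (22.5% of all tested genes) and below them in 6 (27.7%). The median was 0.0033, and 0 passed limma over all genes. At an unadjusted limma p under 0.05, 2 were higher (7.25% of all tested genes) and 1 lower (9.35%). TUBB, the most abundant beta-tubulin gene listed, was the lower one, with 834 and 816 FPKM in knockdown replicates 0 and 1, against 931 and 892 FPKM in control replicates 0 and 1. SASS6, which builds the centriole cartwheel, was on the other side, with 9.13 and 8.57 FPKM in knockdown and 7.80 and 7.05 FPKM in control libraries. ARHGAP11A, a GTPase-activating protein for RhoA, stood at a ratio of 1.18.

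Of 17 matched genes of the MuvB complex, the E2F factors and the RB family, 15 had a positive log2 change (46.8% of all tested genes). Both knockdown libraries lay above both controls in 8 (22.5% of all tested genes). The median was 0.09, and 0 passed limma over all genes. With the GC trend removed, 13 of the 17 were positive (51.7% of all tested genes), with a median of 0.06. LIN9, a MuvB core subunit, had 9.58 and 9.42 FPKM in knockdown and 8.25 and 7.77 FPKM in control libraries, a log2 change of 0.22 ± 0.06 (SE) with a limma adjusted p of 0.21. RBBP4, which MuvB shares with other chromatin complexes, stood at a ratio of 1.06, and E2F3 at 1.10.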
